A study of Mus musculus with 2 samples.

Results

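The 33 genes described here encode enzymes of cholesterol synthesis, the proteins that sense sterols, and the proteins that take up, esterify or export cholesterol. They were taken as a list of symbols grouped by function from the 43346 mouse gene identifiers quantified, of which 21474 are annotated as protein-coding. All 33 were found, on 17 chromosomes, with Ebp and Nsdhl on the X. They fell into 6 groups by role, with 7 genes from acetyl-CoA to farnesyl pyrophosphate, 10 from squalene to cholesterol, 5 for sterol sensing, 4 for uptake and transport, 3 for esterification and 4 for efflux. The RNA was total RNA of the livers of B6NCrl mouse embryos at embryonic day 12.5, with no treatment named and both sexes mixed. Replicate 1 was a pool of 120 embryos and replicate 2 a separate pool of 88 embryos. Both form 1 group, so the data give the level of each gene in this tissue and how far 2 pools differed, with no comparison of conditions.

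Cholesterol is built from acetyl-CoA through mevalonate to farnesyl pyrophosphate, which is also the source of other isoprenoids, and then through squalene and lanosterol. The transcription factors SREBP-1 and SREBP-2 are made as membrane proteins of the endoplasmic reticulum. When sterols are scarce, SCAP escorts them to the Golgi, where proteases release the active part, and when sterols are plentiful the INSIG proteins hold SCAP back. Active SREBPs bind sterol response elements and act together with NF-Y, which binds CCAAT, or Sp1, which binds GC boxes. The liver is a main site of these steps in the adult, and at embryonic day 12.5 it also holds large numbers of maturing red cells.

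The stretch of 250 bases before the RefSeq transcript start is shown for 6 members. Some were chosen by their matches to CCAAT or to a sterol response element form, and some by their ratio between the pools. No link between matches and these ratios was tested. Each is written 5′ to 3′ on the strand of the gene, from RefSeq on build GRCm38.p6. Capitals mark CCAAT or its reverse complement ATTGG, and in Hmgcs1 also the single match to TCACNCCAC. For Msmo1, the RefSeq start lies downstream of that of the leading coding transcript Msmo1-201 (61.0% and 62.2% of TPM). All marked CCAAT of Msmo1 lie downstream of the start of Msmo1-201. Hmgcs1 held both kinds of match, Mvk held the most CCAAT matches of these 6, Msmo1, Nsdhl and Insig1 were the enzymes and the sensor gene that were lower in replicate 1 by the widest margins in their groups, and Acat2 was the synthesis gene with a promoter in the table but no CCAAT match.
Hmgcs1, chr13:119690101-119690350, plus strand: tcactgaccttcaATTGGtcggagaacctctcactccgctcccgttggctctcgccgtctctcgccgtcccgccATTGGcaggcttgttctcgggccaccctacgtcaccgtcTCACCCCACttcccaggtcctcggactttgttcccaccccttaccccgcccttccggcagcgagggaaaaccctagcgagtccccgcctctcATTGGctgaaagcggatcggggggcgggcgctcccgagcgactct
Mvk, chr5:114444019-114444268, plus strand: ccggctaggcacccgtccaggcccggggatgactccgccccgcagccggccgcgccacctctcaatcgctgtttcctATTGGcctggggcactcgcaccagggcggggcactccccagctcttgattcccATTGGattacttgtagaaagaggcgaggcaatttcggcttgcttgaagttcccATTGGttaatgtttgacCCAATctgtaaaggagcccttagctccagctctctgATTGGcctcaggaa
Msmo1, chr8:64733579-64733828, minus strand: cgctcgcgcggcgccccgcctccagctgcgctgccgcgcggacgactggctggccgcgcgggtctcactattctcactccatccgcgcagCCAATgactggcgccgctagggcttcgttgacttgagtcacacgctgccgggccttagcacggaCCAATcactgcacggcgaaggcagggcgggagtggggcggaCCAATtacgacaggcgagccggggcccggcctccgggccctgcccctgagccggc
Nsdhl, chrX:72918271-72918520, plus strand: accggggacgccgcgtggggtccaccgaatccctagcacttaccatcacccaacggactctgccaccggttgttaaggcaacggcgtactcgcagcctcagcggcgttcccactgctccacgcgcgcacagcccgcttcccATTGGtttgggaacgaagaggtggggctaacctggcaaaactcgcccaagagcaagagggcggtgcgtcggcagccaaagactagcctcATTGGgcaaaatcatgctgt
Insig1, chr5:28071162-28071411, plus strand: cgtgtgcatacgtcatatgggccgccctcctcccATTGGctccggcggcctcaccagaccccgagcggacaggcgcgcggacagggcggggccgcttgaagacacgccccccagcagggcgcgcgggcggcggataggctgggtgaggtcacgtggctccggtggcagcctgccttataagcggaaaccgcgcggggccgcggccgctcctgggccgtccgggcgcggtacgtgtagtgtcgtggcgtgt
Acat2, chr17:12960726-12960975, minus strand: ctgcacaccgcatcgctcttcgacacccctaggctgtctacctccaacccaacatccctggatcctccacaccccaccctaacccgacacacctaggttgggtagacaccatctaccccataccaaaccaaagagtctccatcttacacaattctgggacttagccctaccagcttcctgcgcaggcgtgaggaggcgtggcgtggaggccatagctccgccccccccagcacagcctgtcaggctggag

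CCAAT was common in these promoters. RefSeq windows of 300 bases, 250 before to 50 after the start, were present for 26 members (35 windows, with several windows for 6 members). At least 1 CCAAT on either strand stood in a window of 23 of 26 members (88.5%), against 41.1% of all 27025 genes with a window and 43.4% of the 9251 detected protein-coding genes among them. The synthesis enzymes held it in 13 of 14 genes (92.9%) and the other members in 10 of 12 (83.3%). Acat2, Scap and Abca1 were the members with a window but no match. Some members count through a start that is little used here or is not that of their leading transcript. The matches of Insig2 all lay in the window of the start of Insig2-202, at 0 TPM in both libraries. The window of Insig2-201, its leading transcript, held none. The single match of Pmvk lay before a start at which no quantified transcript begins, and not that of Pmvk-201 (97.1% and 97.2% of TPM). Npc1l1, Abcg5 and Abcg8, each under 1 TPM, are counted as well. Sqle, Npc1, Fdft1, Scarb1, Fdps, Abcg1 and Soat2 had no window in the table used.

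Counted by window, a choice made after the first counts were seen, 24 of 35 windows of members (68.6%) held CCAAT, against 37.4% of all 32851 windows. Every window held it in 18 of 26 members (69.2%), against 34.8% of all genes. For the synthesis enzymes, 13 of 17 windows (76.5%) held it. Windows with at least 2 matches made up 52.9% for these enzymes and 11.7% over all, and windows with at least 3 made up 29.4% and 3.37%. Mvk, which encodes mevalonate kinase, had 5 matches, centred at 171, 118, 65, 48 and 12 bases before the start. Hmgcs1, for the cytosolic enzyme that makes HMG-CoA, had 4, of which 1 lay 12 bases after the start. Nsdhl, for a sterol dehydrogenase, also had 4, of which 1 was centred 10 and 1 was centred 36 bases after the start. Of the 46 matches in members, 71.7% lay within 150 bases before the start, against 60.3% of all 17707 matches. The windows of Abcg5 and Abcg8 overlap, and 1 CCAAT is counted in both. The members' windows had a mean GC content of 60.3%, against 53.8% for all windows, and the part of base composition in these shares was not tested.

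The other motifs were found in fewer members. TCACNCCAC was found in 1 of 26 members, Hmgcs1, as TCACCCCAC centred 133 bases before the start, and in 1.44% of all genes. A shorter form, CACNCCAC, was found in Acat2, Hmgcs1 and Insig1 (11.5%) and in 7.12% of all genes. The GC box GGGCGG stood in 21 of 26 members (80.8%), against 38.2% of all genes but 69.6% of detected protein-coding genes. The E-box CACGTG, which reads the same on both strands and was counted once, stood in Hsd17b7, Sc5d, Dhcr7, Scap, Insig1 and Abca1, or 23.1% of members, against 8.09% of all genes and 11.8% of detected protein-coding genes. CCAAT and GGGCGG can share bases at their ends, and TCACNCCAC contains CACNCCAC. A match describes letters in a window and does not show that a factor bound there.

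**Figure D1:**
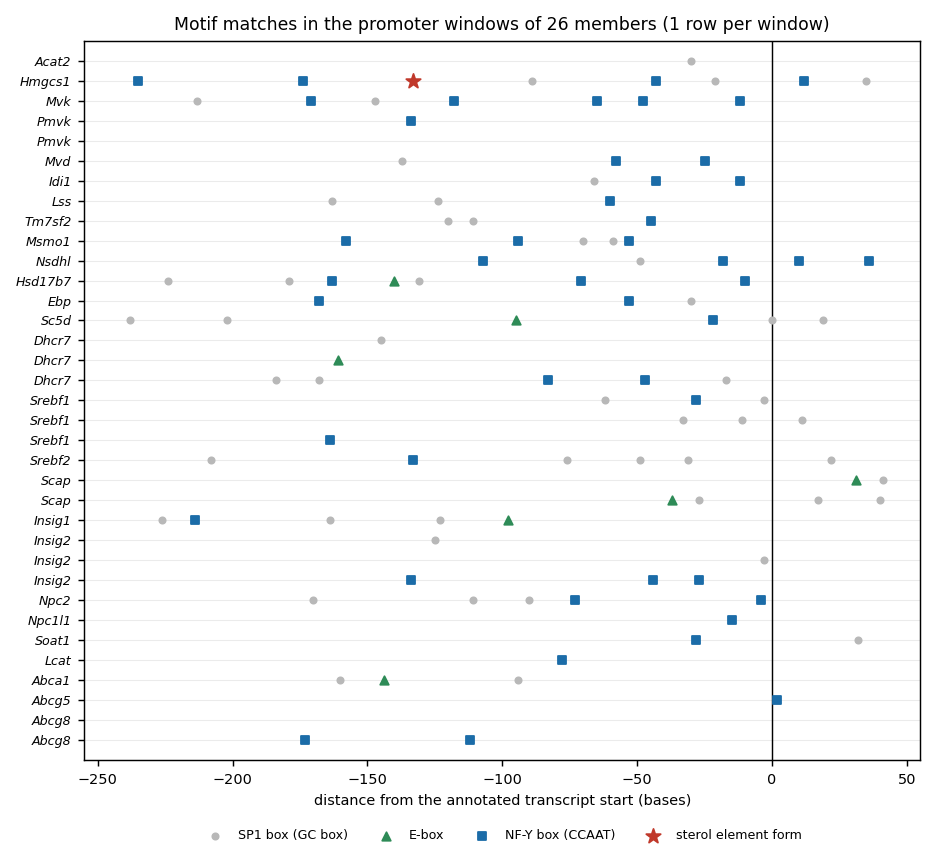
Positions of motif matches in the 35 promoter windows of 26 members, 1 row per window; the horizontal axis is the distance of the centre of a match from the annotated transcript start in bases, and symbols mark the sterol element form, CCAAT, the GC box and the E-box. In the synthesis enzymes, 71.0% of CCAAT matches lie within 150 bases before the start, against 60.3% of the matches in all windows. Mvk has 5 matches and Hmgcs1 and Nsdhl have 4 each, and the only sterol element form is that of Hmgcs1.

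The libraries held 37.6 M estimated reads in replicate 1 and 34.7 M in replicate 2, and the 33 members took 0.270% and 0.281% of them. Levels are given as TPM, a measure of transcript abundance whose values are scaled for transcript length and can be compared between genes. All 6 hepatoblast markers were present, with a summed level of 8148 TPM in replicate 1 and 7983 in replicate 2, of which Afp alone had 5312 and 5136 TPM. All 6 erythroid markers were present, with sums of 47749 and 48863 TPM, of which Hba-a1 alone had 45881 and 46967 TPM. By median, the erythroid markers were lower than the hepatoblast markers, at 468 against 687 TPM. The 6 macrophage markers summed to 172 and 174 TPM, the 6 endothelial markers to 116.6 and 109.3 TPM and the 6 mesenchymal markers to 387.4 and 392.3 TPM. The gut markers summed to 12.9 and 12.5 TPM, with Cdx2 at 0.03 and 0 TPM. Of these, 2 of 5 were at 1 TPM or more in both libraries, Barx1 (6.82 and 6.2 TPM) and Fabp2 (5.17 and 5.39 TPM). Of the adrenal and gonad markers 1 of 5, Hsd3b1, reached that level, with Nr5a1 at 0.02 and 0.04 TPM. Fewer cells of a type and less RNA per cell cannot be told apart in such bulk RNA, and which of these cells carried the members' RNA was not tested.

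Of the 33 members, 30 were detected, meaning at least 1 TPM in both libraries, where 54.5% of all protein-coding genes were. At least 10 TPM in both was reached by 26 of 33, against 31.8% of all protein-coding genes. All 17 synthesis enzymes passed the higher limit, and 9 of the 16 others did. Npc1l1, Abcg5 and Abcg8 were the 3 members under 1 TPM. The summed level was 1419 TPM in replicate 1 and 1476 in replicate 2. The 17 enzymes made up 1067 and 1116 TPM of this. Their median was 49.5 TPM and that of the other members 19.4 TPM, beside 14.2 TPM for all detected protein-coding genes.

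**Figure D2:**
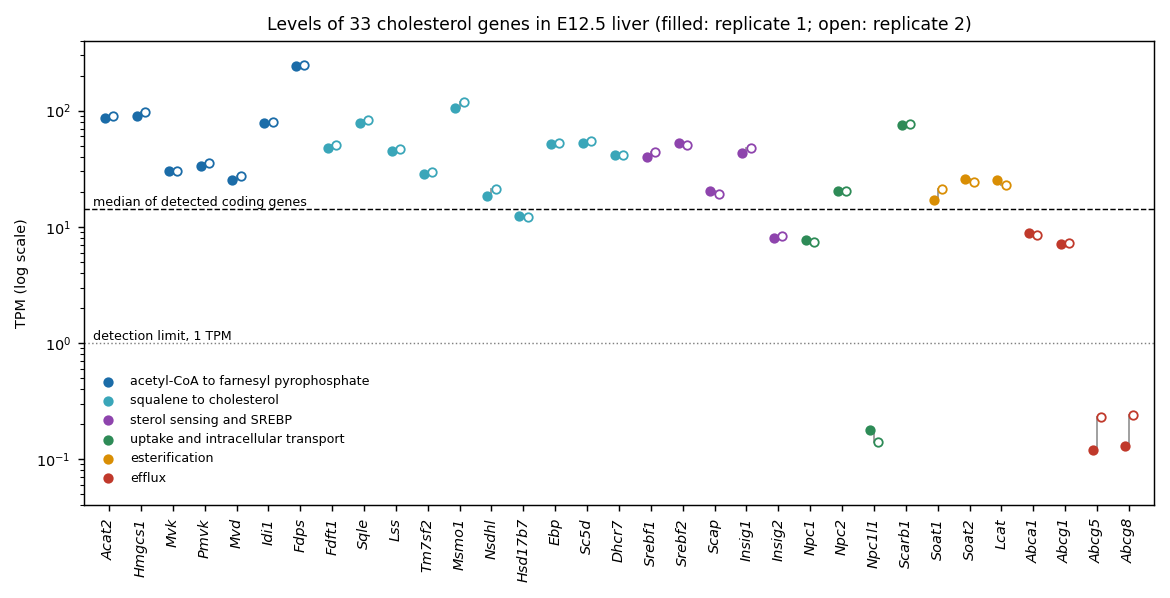
TPM of each of the 33 members on a log axis, with a filled point for replicate 1 and an open point for replicate 2, coloured by role; the dashed line is the median of detected protein-coding genes (14.2 TPM) and the dotted line the limit of 1 TPM. Of the 17 synthesis enzymes, 16 lie above the dashed line and Hsd17b7 just below it, and Npc1l1, Abcg5 and Abcg8 lie below the dotted line.

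The 7 genes from acetyl-CoA to farnesyl pyrophosphate had the highest median of the 6 roles, 79.3 TPM. Acat2, the cytosolic thiolase that joins acetyl-CoA units, had 86.3 TPM in replicate 1 and 89.7 in replicate 2. Hmgcs1, the next enzyme, had 90.7 and 97.4 TPM. The 3 genes that turn mevalonate into isopentenyl pyrophosphate were all lower than these. Mvk had 29.97 and 30.26 TPM. Pmvk, phosphomevalonate kinase, had 33.6 and 35.2 TPM. Mvd, mevalonate diphosphate decarboxylase, had 25.4 and 27.1 TPM. The order Pmvk, Mvk, Mvd held in both libraries, and the next genes were again higher. Idi1, which interconverts the 5-carbon isoprenoid isomers, had 78.8 and 79.9 TPM. Fdps, which makes farnesyl pyrophosphate, had 240.0 and 245.5 TPM, the highest level of any member. Fdps averaged 243 ± 3.88 TPM (SD, n = 2), held 22.2% of the summed TPM of the 17 enzymes and stood above 96.3% of detected protein-coding genes.

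The 10 genes from squalene to cholesterol had a median of 47.7 TPM. Fdft1, squalene synthase, had 48.1 TPM in replicate 1 and 50.9 in replicate 2. Sqle, squalene epoxidase, had 78.5 and 83.3 TPM. Lss, which closes the sterol rings to give lanosterol, had 45.3 and 46.6 TPM. Sqle thus stood above its neighbours on both sides in the pathway. Msmo1, the C4 methylsterol oxidase, was the highest of this role. It had 106 and 118 TPM. Its partners in the removal of the C4 methyl groups were the lowest of this role. Nsdhl had 18.3 and 21.2 TPM. Hsd17b7, a ketosteroid reductase, had 12.3 and 12.1 TPM. It averaged 12.2 ± 0.127 TPM (SD, n = 2), 19.9-fold below Fdps.

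The remaining enzymes of the later steps lay between these. Tm7sf2, a sterol C14 reductase, had 28.6 TPM in replicate 1 and 29.6 in replicate 2. Ebp, the sterol isomerase, had 51.2 and 52.4 TPM. Sc5d, the C5 desaturase, had 52.4 and 55.02 TPM. Dhcr7, which makes cholesterol from 7-dehydrocholesterol, lay between Tm7sf2 and these, since it had 41.3 and 41.6 TPM. Sc5d was above Ebp in each library. The means of Ebp and Sc5d, 51.8 ± 0.820 and 53.7 ± 1.83 TPM (SD, n = 2), overlap within 1 SD, so their order is not firm.

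The 5 sensing genes had a median of 42.1 TPM. Srebf2, which encodes SREBP-2, the form tied to cholesterol synthesis, had 52.3 TPM in replicate 1 and 51.0 in replicate 2. Srebf1, which encodes SREBP-1, the form tied to fatty acid synthesis, had 39.9 and 44.4 TPM. Scap, the escort, had 20.2 and 19.2 TPM. Both transcription factor genes were thus above their escort, and the pair of retention proteins was unequal. Insig1, itself an SREBP target, had 42.8 and 47.9 TPM. Insig2 had 8.02 and 8.38 TPM, and no value of Insig1 came near it.

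Among the 4 genes of uptake and transport, the median was 13.985 TPM and the spread was wide. Scarb1, the receptor that takes cholesterol esters from high-density lipoprotein, had 76.0 TPM in replicate 1 and 76.9 in replicate 2, above 86.8% of detected protein-coding genes. Npc1 and Npc2 move cholesterol out of lysosomes, Npc1 at the membrane and Npc2 in the lumen. Npc1 had 7.66 and 7.39 TPM. Npc2 had 20.6 and 20.3 TPM, above Npc1 in both libraries. Npc1l1, the sterol importer known from the small intestine, had 0.18 and 0.14 TPM, from 25 and 18 reads. A floor of 3 reads would be 0.0216 and 0.0233 TPM for this gene, so its reads were few but above that floor.

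The 3 esterification genes lay close together, with a median of 24.1 TPM. Soat1 and Soat2 make cholesterol esters inside cells, and Lcat makes them on lipoproteins in plasma. Soat1 had 16.97 TPM in replicate 1 and 21.1 in replicate 2. Soat2 had 25.9 and 24.5 TPM. Lcat had 25.4 and 22.8 TPM. Soat1 was the lowest of the 3 in each library. Soat2 was above Lcat in each library, but narrowly in replicate 1, and their ranges over the libraries overlap, so this order is not firm.

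The 4 exporters were the lowest role, with a median of 3.66 TPM. Abca1, which loads cholesterol onto lipid-poor apolipoprotein, had 8.80 TPM in replicate 1 and 8.47 in replicate 2. Abcg1, which passes cholesterol to mature high-density lipoprotein, had 7.07 and 7.21 TPM. Abcg5 and Abcg8 form the dimer that secretes sterols into bile in the adult liver. Abcg5 had 0.12 and 0.23 TPM, from 7 and 10 reads. Abcg8 had 0.13 and 0.24 TPM, from 12 and 16 reads. All 4 of these values were above the floor of 3 reads, which lay between 0.0325 and 0.069 TPM for the 2 genes.

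**Figure D3:**
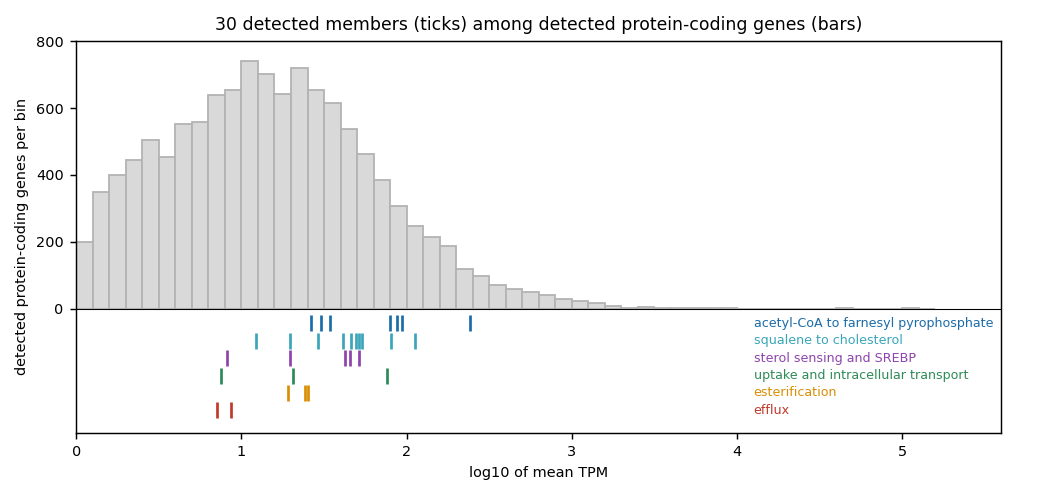
Mean TPM of the 30 detected members (ticks, coloured and stacked by role) under a histogram of all detected protein-coding genes; the horizontal axis is log10 of mean TPM and the vertical axis the number of genes in a bin. The ticks of the synthesis enzymes reach from 12.2 TPM (Hsd17b7) to 243 TPM (Fdps), and both efflux ticks lie at the left, under 10 TPM.

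Paired genes of like function were compared per length within each library. Insig1 was 5.34-fold above Insig2 in replicate 1 and 5.72-fold in replicate 2, a mean of 5.53 ± 0.269 (SD, n = 2), and the counting intervals reached down to 4.86 and 5.20. Npc1 was 42.6-fold and 52.8-fold above Npc1l1, with wide intervals (28.7 to 66.0 and 33.2 to 89.4) because of the few Npc1l1 reads. Abca1 over Abcg1 was 1.24 and 1.17, and both intervals lay above 1.

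The other pairs moved with the library or rested on few reads. Srebf2 over Srebf1 was 1.31 in replicate 1 and 1.15 in replicate 2, a mean of 1.23 ± 0.114 (SD, n = 2). With protein-coding transcripts alone this mean was 1.93. Soat1 over Soat2 was 0.655 and 0.860, a mean of 0.758 ± 0.144 (SD, n = 2), so Soat2 was the higher in both pools but by unequal amounts. Abcg5 over Abcg8 was 0.923 and 0.958, with intervals from 0.308 to 2.54 and from 0.389 to 2.25, and this depth could not show which is higher.

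Several members were quantified as mixtures of annotated transcripts. Of the 33, 10 have 1 annotated transcript and 23 have more, of which 17 were at 10 TPM or more in both libraries. The transcript with the highest TPM held under 70% of the gene's TPM in 7 of these 17, against 47.2% of all 5196 protein-coding genes judged alike. That transcript was annotated as protein-coding in all 17, where it was not for 8.18% of all genes, and it differed between the libraries in 1 of 17, Ebp, against 4.35%. Shares of TPM and shares of reads part where a transcript model is short, since few reads then give a high TPM.

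For Srebf1, the 4299-base coding transcript Srebf1-201 held 51.8% of TPM in replicate 1 and 49.1% in replicate 2, but 77.7% and 80.1% of reads. Srebf1-204, a 367-base model annotated as a processed transcript, held 26.2% and 29.8% of TPM from 88 and 103 reads, or 2.51% and 3.11% of reads. It was matched to the most upstream of the 3 RefSeq starts of the gene, at position 60222581 of chromosome 11, and the RefSeq start matched to Srebf1-201 lies 1954 bases downstream. Coding transcript Srebf1-207, matched to a RefSeq start 12110 bases downstream of the first, held 10.5% of reads in both libraries. Starts were matched within 100 bases, a grouping made after the transcript values were seen. CCAAT stood in the windows of the first and the last of these starts and not in that of Srebf1-201.

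Among the enzymes, Lss-201, a coding transcript of 4667 bases, held 51.3% of the gene's TPM in replicate 1 and 53.2% in replicate 2, and 81.8% and 81.9% of reads. The 352-base processed transcript Lss-202 held 27.7% and 17.1% of TPM from 100 and 59 reads, the largest of the differences between the libraries named here. Msmo1 was different, since a longer non-coding model drew many reads. Msmo1-206, a processed transcript of 1329 bases, held 33.8% and 34.5% of TPM and 24.8% and 25.0% of reads, and the coding Msmo1-201 held 61.0% and 62.2% of TPM. In Hsd17b7, the coding Hsd17b7-201 held 59.3% and 64.1% of TPM and the 810-base processed transcript Hsd17b7-204 held 34.8% and 25.1%. Ebp was split between the coding Ebp-201 (35.1% and 31.8% of TPM), the shorter coding Ebp-203 (35.01% and 37.5%) and the intron-retaining Ebp-202 (25.95% and 27.5%). By TPM the leading pair was nearly tied in replicate 1 and not in replicate 2. By reads, Ebp-201 led in both libraries, with 58.3% and 54.6%.

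Of the transporters and acyltransferases, Scarb1 was shared by coding transcripts of like length. Scarb1-201 held 63.3% of TPM in replicate 1 and 71.2% in replicate 2, and Scarb1-202 held 25.8% and 20.7%. Soat1-201 held 45.3% and 48.7% of the TPM of Soat1, and the longer coding Soat1-207 held 23.5% and 20.0%. By reads their order turned, with 38.2% and 43.5% for Soat1-201 and 57.9% and 52.4% for Soat1-207. Over the 17 members judged, the median share of the leading transcript was 74.8%, against 72.2% over all genes judged. More than 10% of TPM lay on transcripts not annotated as protein-coding in 7 of 17 (41.2%), against 43.2% of all genes judged, so the members were close to other genes in this respect.

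**Figure D4:**
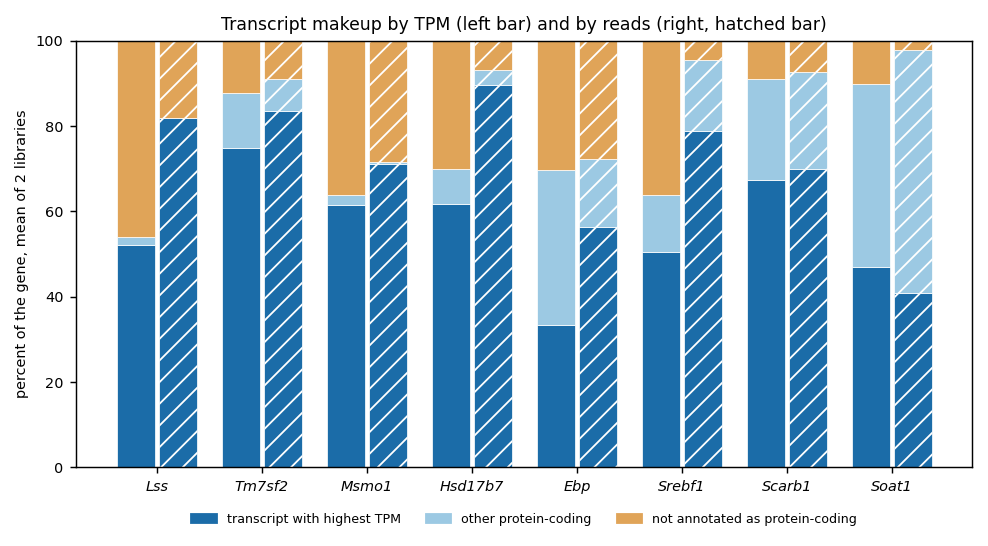
Transcript makeup of the 8 members at 10 TPM or more whose leading transcript held under 70% of TPM or whose non-coding transcripts held over 10%; for each gene the plain bar on the left gives shares of TPM and the hatched bar on the right shares of reads, in percent and averaged over both libraries. For Ebp the dark part is Ebp-201, which led in replicate 1. In Lss, Hsd17b7 and Srebf1 the part not annotated as protein-coding is far smaller by reads (18.0%, 6.89% and 4.53%) than by TPM (45.9%, 29.97% and 36.2%).

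Differences between the pools are given as the ratio of TPM, replicate 1 over replicate 2, with a 95% interval. The interval is exact for the gene's reads and is scaled to the TPM ratio. It covers counting error of those reads only, and not error in the mix of transcripts that sets the gene's length. Each pool is 1 library, so no test of a difference between pools is possible. For the 30 members with a mean of at least 50 reads, 1 was at least 1.2-fold lower in replicate 1 and 0 were higher, where 6.85% of 13017 genes were lower and 5.49% higher by that size. The median coefficient of variation over both libraries was 2.93% in members and 4.21% over all these genes. The member past 1.2-fold was Soat1, with a ratio of 0.805 (0.755 to 0.859), a log2 ratio of -0.31. On reads with TMM scaling, which leaves the transcript lengths out, its log2 ratio was -0.23 and under that size.

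Small differences leaned one way among the enzymes. The ratio was below 1 in 22 of 30 members, against 47.3% of all genes. It was below 1 in 16 of the 17 synthesis enzymes and 6 of the 13 other members with that many reads, with Hsd17b7 the enzyme above 1. The median log2 ratio of the enzymes was -0.06, beside 0.01 for all genes. The interval lay below 1 for 10 members, against 14.6% of all genes, and above 1 for 1 member, Lcat, against 16.3%. All 7 enzymes among these 11 were lower in replicate 1. The enzymes share a pathway and their reads share a library, so they are not independent measurements of a pool.

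The widest of these differences were modest. Nsdhl had a ratio of 0.864 (0.798 to 0.936), from 1190 reads in replicate 1 and 1277 in replicate 2, and Msmo1 had 0.896 (0.864 to 0.930). Among the sensors, Insig1 had 0.893 (0.853 to 0.936) and Srebf1 0.899 (0.857 to 0.943). The log2 ratio of Srebf1 was -0.15 by TPM and -0.04 on reads with TMM scaling, where its interval no longer left out 1, and that of Lss then lay below 1. The share of Srebf1 TPM on the short model Srebf1-204 was also lower in replicate 1, and its part in the TPM ratio was not tested. The coding transcripts of Srebf1 together had 26.67 TPM in replicate 1 and 26.95 in replicate 2. Hmgcs1 had 0.931 (0.904 to 0.959) and Sqle 0.942 (0.910 to 0.975). Lcat had 1.11 (1.01 to 1.22).

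The direction for the enzymes depended on what was taken as equal between the libraries. With spike-ins set equal, all genes shifted upward by 0.12 on the log2 scale, the median of the enzymes became 0.06, and 2 of 17 were below 0. Relative to the median of all genes, which a scaling moves along with every gene, 16 of 17 enzymes were lower in replicate 1 by TPM, with Hsd17b7 the exception, and 16 of 17 by read counts, with Ebp the exception. The pools differ in the number of embryos and are separate, and the labels name no further difference between them.

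**Figure D5:**
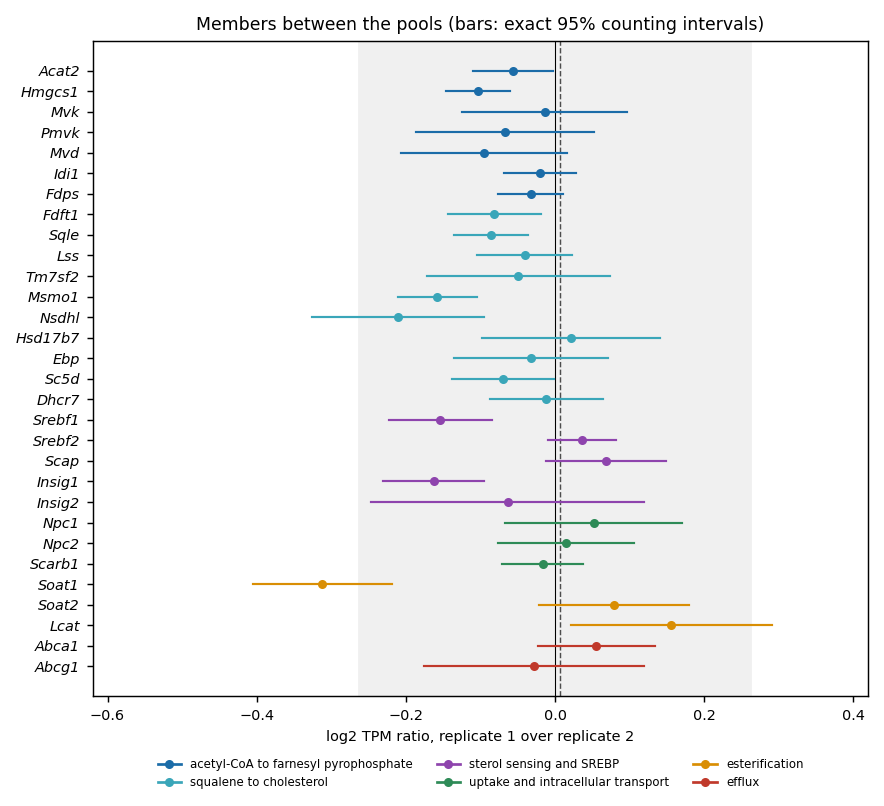
Log2 ratio of TPM, replicate 1 over replicate 2, for the 30 members with a mean of at least 50 reads, coloured by role, with bars for the exact 95% counting interval; the shaded band spans ratios within 1.2-fold and the dashed line is the median of all genes (0.01). Of the 17 synthesis enzymes, 16 points lie left of 0, and Soat1 is the only point outside the band.

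Some values rest on reads that could be shared with a neighbour, and the labels give no strandedness. Exons of Fdft1 and those of Ctsb, a gene on the opposite strand with 204 TPM in replicate 1 and 203 in replicate 2, share 774 bases, so the Fdft1 level is uncertain. Npc1 shares 511 bases with Rmc1 on the opposite strand (50.3 and 49.2 TPM), against a level of Npc1 under 8 TPM. Tm7sf2 shares 532 bases with Vps51 on the same strand (31.9 and 35.9 TPM), and Srebf1 shares 109 bases with Rai1 on the opposite strand (10.1 and 9.77 TPM). Abcg5 and Abcg8 share 82 bases with each other on opposite strands. Estimated reads were not whole numbers for 9 members, Acat2, Idi1, Fdps, Fdft1, Lss, Tm7sf2, Scap, Npc1 and Soat1, as happens where reads that match several genes are divided among them.

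Other genes of the pathway were read from lists that hold none of the 33. Of 10 further sterol and isoprenoid enzymes, 9 were detected, with a median of 20.2 TPM. The highest was Lbr, which encodes a nuclear envelope protein that is also a sterol C14 reductase, with 247 TPM in replicate 1 and 257 in replicate 2. The lowest was Idi2, with 0.01 and 0 TPM. Lbr was 8.66 ± 0.0321 times as high as Tm7sf2, which has the same enzyme activity (SD, n = 2). This ratio was chosen after the values were seen.

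The remaining lists held regulators and carriers. All 7 genes of SREBP processing and of the degradation of sterol sensors were detected, with a median of 23.6 TPM. Their lowest was Mbtps2, the site-2 protease, with 8.50 TPM in replicate 1 and 7.61 in replicate 2. All 8 genes of lipoprotein uptake and lysosomal release were detected, with means from 1.83 to 74.4 TPM. All 8 genes of sterol transfer were detected as well, from Gramd1b at 1.65 and 1.89 TPM to Vps4b at 29.2 and 30.3 TPM. Of the 8 genes of oxysterol handling and LXR, the oxysterol receptor that drives the exporters, 5 were detected. Nr1h2, which encodes LXR-beta, had 44.7 and 46.1 TPM, and Cyp46a1, cholesterol 24-hydroxylase, was the lowest by mean TPM with 0.38 and 0.46 TPM, although not in replicate 2 alone. A mean of at least 50 reads was reached by 9 of the further enzymes and by 7, 8, 8 and 5 genes of the lists here. Among these genes, 1 was at least 1.2-fold lower and 1 at least 1.2-fold higher in replicate 1. Over all genes with that many reads, 6.85% were lower and 5.49% higher.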

How the data were processed

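Total RNA above a size of 200, with 10 ng per library and control spike-ins, was sequenced per the labels' protocols in 2 libraries of pooled embryos. The authors deposited gene and transcript tables for each library alone, on mm10 with GENCODE annotation M4 per the file headers. Which aligner and quantifier were used is not given in the sources used here. Expected counts, as deposited, are estimated reads, not normalized and not always whole. The deposited TPM and FPKM are scaled by effective length, and TPM covers spike-ins too. The deposited percent of a gene per transcript was recomputed here from transcript TPM.

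Members were matched by unversioned identifier, with symbols, gene classes, coordinates and transcript types from GENCODE M21 on the same assembly, and 42462 identifiers had a symbol. Log2 ratios used a pseudocount of 0.1 TPM, which understates low genes. Intervals were exact Clopper-Pearson intervals at 95% on rounded counts, scaled to the TPM ratio. Copies made by PCR carry no molecular tag here, so intervals and the floor of 3 reads (0.0953 and 0.103 TPM at 1 kb in replicates 1 and 2) cover counting error only. A fold rule of 1.2 applied to genes with a mean of at least 50 reads. Scalings came from edgeR 4.0.16 (TMM), DESeq2 1.42.0 (size factors) and spike-ins. The interval and the motif search were checked on simulated data. The simulated counts held counting error alone, so this check does not cover the spread between libraries or the division of reads among genes. With 1 group, no p-value was computed, and the SD covers 2 pools of many embryos each, not single embryos. All 33 members are named; other genes are named as the highest or lowest of a list, as markers or as overlapping genes, and the lipoprotein list is given by its range. Some genes of these lists are not reported here. The members and lists were chosen with earlier results of these data known. Counts per promoter window, starts of Srebf1 transcripts, intervals on reads and directions relative to all genes were added after the values were seen.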

Additional observations from a re-analysis of the deposited data

How the results depend on the processing

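No paired analysis was possible because the 2 libraries form 1 group. The medians by role changed in size under other units. Such units rescale all genes of a library alike, so the kept order of the medians adds no support. With spike-ins and globins left out of TPM, they were 43.8 for all members, 115.4 for acetyl-CoA to farnesyl pyrophosphate, 69.4 for squalene to cholesterol, 61.3 for sensing, 20.3 for uptake, 35.1 for esterification and 5.33 for efflux. In FPKM the same medians were 25.3, 66.5, 40.0, 35.3, 11.7, 20.2 and 3.07. Over detected members alone, the medians were 37.9 for all, 20.4 for uptake and 7.89 for efflux. With protein-coding transcripts only, Srebf2 over Srebf1 was 1.93 and Abcg5 over Abcg8 was 0.75. The median log2 ratio of the 17 enzymes was -0.0821 with TMM, -0.0766 with DESeq2 size factors and 0.0598 with spike-in centring, where the sign turned. For the other members it was 0.13 with spike-in centring and -0.00101 with no count filter. The count of other members at least 1.2-fold lower was 0 with TMM, DESeq2 size factors, spike-in centring or a 1.5-fold rule. Of all 13017 genes, 815, 789, 470 and 165 were lower in these settings, in that order. The count was 2 at a mean of at least 10 reads, where 1853 of 16173 genes were lower. It was 3 with no filter, which let in the members with few reads, and 4474 of 43346 genes were then lower. The count of those higher was 1 with spike-in centring, where 1894 of 13017 genes were higher. The less strict sterol element form was found in 3 members. The cause of the other shifts was not tested. Under the other settings tried, either library alone included, levels moved by no more than the spread between libraries and counts by no more than 1.5 times. Depth limits Npc1l1, Abcg5 and Abcg8, each with 25 reads or fewer per library.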
